A study of Mus musculus and Homo sapiens with 8 samples.

Results

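The genes described are 54 cytosolic ribosomal protein genes, taken by a fixed list of Ensembl identifiers from the 60675 rows of the deposited count table. The list holds RPSA and RPS genes of the small ribosomal subunit, and RPLP0 to RPLP2 and RPL3 to RPL24 genes of the large subunit. All 54 identifiers were found. The tables used here do not pair an identifier with a symbol, so single genes are given by identifier and no subunit or role is assigned to any of them.

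The values come from HepG2, an established human liver carcinoma cell line, at 25 population doublings. Cells were sampled 24 h after arsenite, the trivalent oxyanion of arsenic, in 2 libraries, and 24 h after water, the control, in 2 libraries. The labels write 5 nM beside arsenite and repeat that figure beside water. The study, of 8 samples, also holds NIH3T3 mouse fibroblasts, whose columns do not belong to the human identifiers and were not used. Nothing in the labels says whether the 2 samples of a group are separate cultures. The p-values therefore cover the spread between the deposited samples alone, part or all of which may be technical. Whether the libraries hold liver-cell or other cell type markers could not be checked by name.

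Ribosomal proteins, together with ribosomal RNA, form the small subunit, which reads the message, and the large subunit, which joins amino acids. One copy of most of these proteins is built into each ribosome, and their messenger RNAs are among the most abundant in growing cells. In mammals these messages begin with a pyrimidine tract, through which the mTOR pathway and the RNA-binding protein LARP1 set their translation and stability together. Many ribosomal protein genes have near-identical processed pseudogenes. Reads shared with such copies can be lost or split in counting, and their treatment is not stated in the sources at hand. Levels of single members are therefore uncertain.

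The arsenite libraries held 27192636 and 27361110 counts, and the water controls 26965049 and 27481613 counts. All 54 members had enough counts for testing. Levels are given as CPM, each gene's counts divided by the library total and multiplied by 1000000. Differences are log2 fold changes of arsenite over water from edgeR's quasi-likelihood test, which scales libraries by the trimmed mean of M values (TMM), with p-values adjusted by Benjamini-Hochberg over all 14389 genes tested and a threshold of 0.05. The TMM factors were 0.964 and 0.980 with arsenite and 1.02 and 1.04 in controls, so a fitted fold lies slightly above the ratio of CPM. The spread entering each test was that of genes of similar abundance, without weight for the member's own replicates, and the standard errors (SE) reflect that.

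The ribosomal protein genes did not move as a block after arsenite. Of the 54 members, 12 rose, 12 fell and 30 did not pass the threshold. The fitted log2 fold changes ran from -1.47 to 2.50. Their median was 0.05, against -0.02 over all genes tested. When libraries were scaled by their totals alone, the members' median turned negative, to -0.03, and the median over all genes tested fell to -0.10. Without arsenite 1 the members' median was -0.01. The number of members called moved when single libraries were left out, and so did the number called over all genes tested. Both are given with the alternatives in the closing section.

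The share of members called higher was 22.2%, against 11.8% of all genes tested. The share called lower was also 22.2%, against 18.8% of all genes tested. The members were abundant, 53 of them with a mean of at least 100 CPM. Among the 2037 tested genes of that abundance, 29.9% were called higher and 10.8% lower, and the median log2 fold change was 0.20. With scaling by library totals alone, 8 members were called higher and 15 lower, and over all genes 1132 were called higher and 3317 lower, against 1693 and 2704 with TMM.

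**Figure D1:**
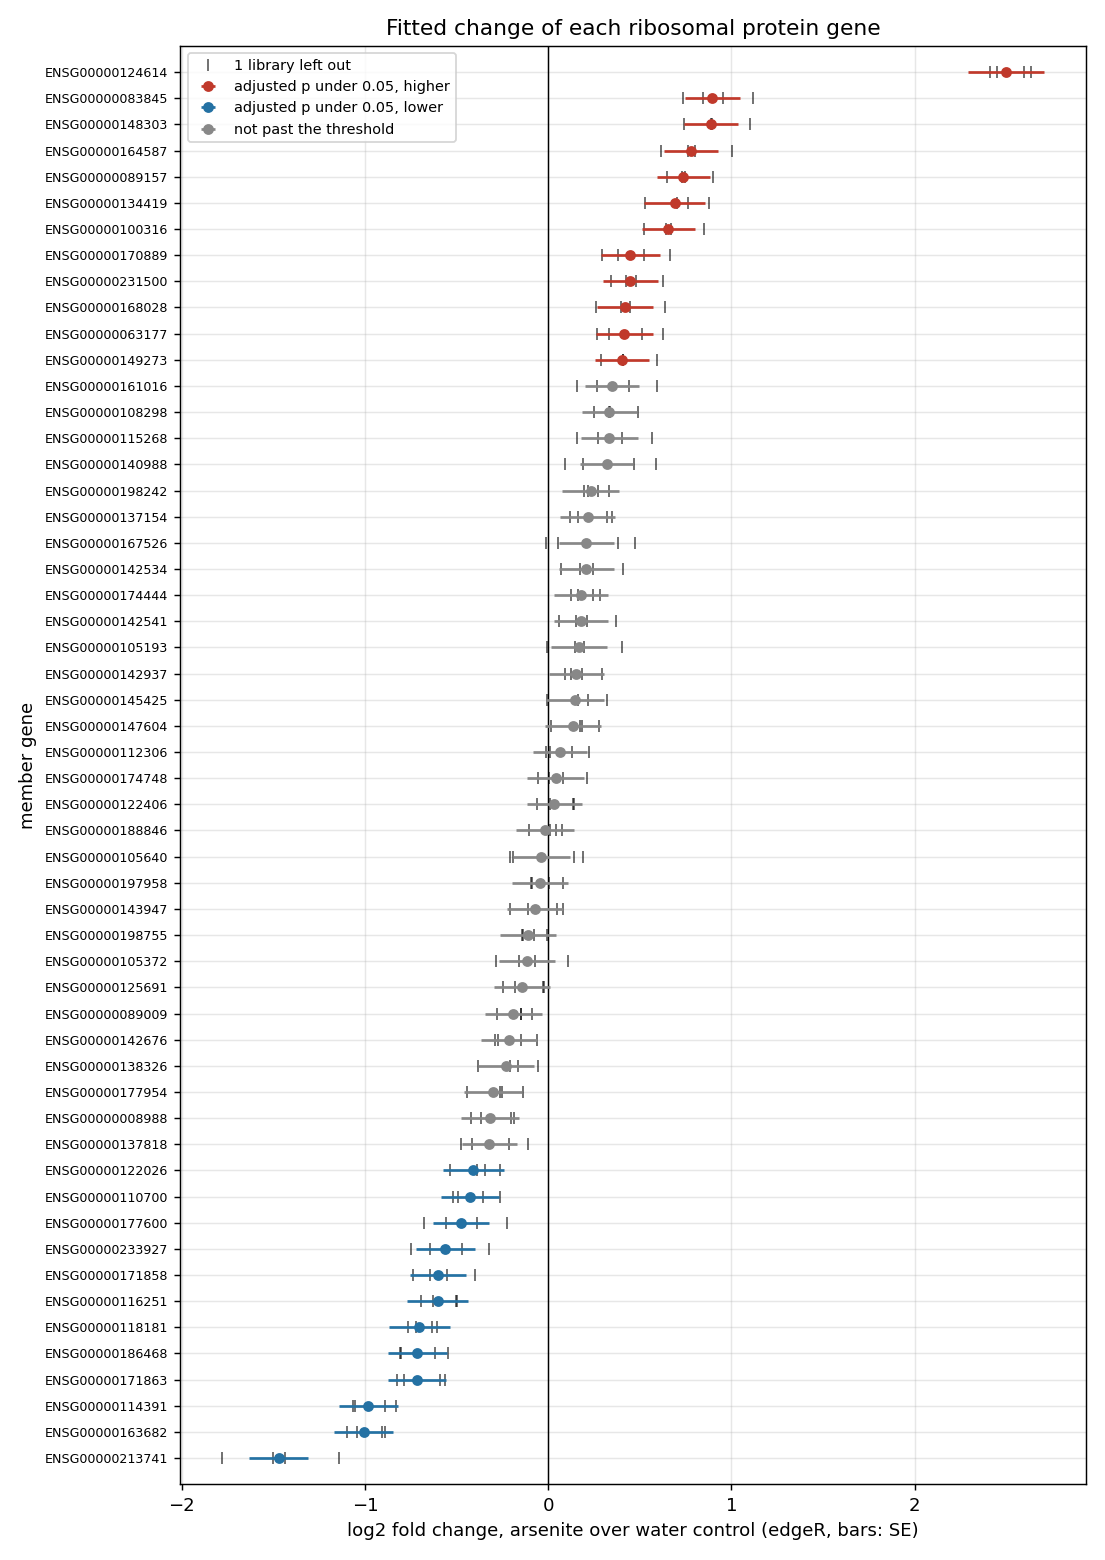
Fitted log2 fold change of arsenite over water (x axis) for each of the 54 members (y axis), with SE bars. Ticks give the value with 1 library left out. The values spread over both sides of 0, with 12 members past the threshold on either side. ENSG00000124614, 1 of the 12 that rose, stands apart at 2.50, and all other members lie from -1.47 to 0.90.

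Counted by the libraries themselves, both arsenite libraries lay above both controls in CPM for 15 members and below both for 22, and the groups overlapped for 17. Over all genes tested, 25.5% lay above and 41.2% below. Over the genes with at least 100 CPM, 45.7% lay above and 27.2% below. All 24 members past the threshold had groups that did not overlap. Of the 30 others, 3 lay above, 10 below and 17 overlapped. Calls and overlap were read from the same libraries, so the lack of overlap adds no support for the calls.

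The members together took 5.10% of all counts in arsenite 1 and 4.34% in arsenite 2, against 4.28% in control 1 and 4.32% in control 2. Arsenite 1 stood above the other 3 libraries, which lay close to each other. The means were 4.72 ± 0.53% with arsenite and 4.30 ± 0.03% in controls (SD, n = 2 each). A 2-sided exact permutation test gave p = 0.333, the smallest that 2 samples against 2 allow. Within the arsenite group 46 of the 54 members were higher in arsenite 1 than in arsenite 2, with a median log2 difference of 0.18. Within the controls 34 members were higher in control 1, with a median log2 difference of 0.05. Regardless of sign, the members' median gap was 0.18 between arsenite replicates and 0.15 between controls. Over all genes tested these gaps were 0.20 and 0.22, and over genes with at least 100 CPM 0.16 and 0.17. The direction of the gap was not counted over all genes.

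**Figure D2:**
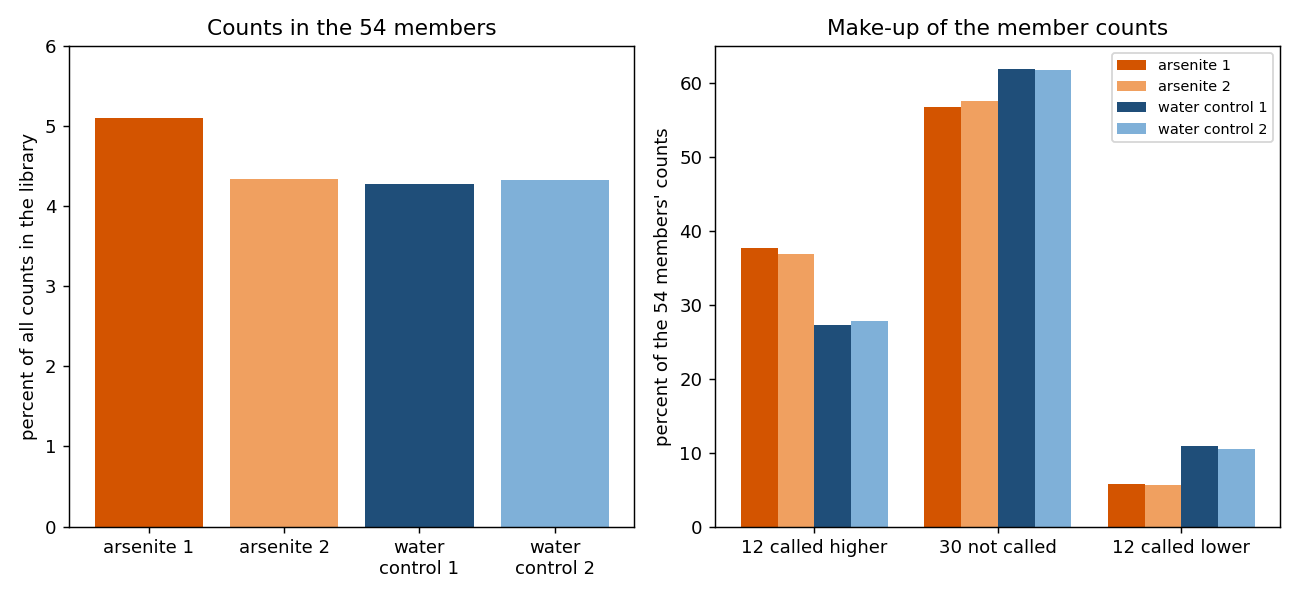
Left, percent of each library's counts taken by the 54 members; right, percent of the members' counts taken by the members called higher, not called and called lower, with arsenite libraries left of the water controls. Arsenite 1 holds 5.10% against 4.28% to 4.34% in the other 3 libraries. The right panel describes groups chosen from these libraries and is no test.

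Because the summed level differed between libraries, each member was also expressed as a percent of the members' own counts, a measure that does not depend on library scaling but shows unequal change alone. The 12 members that rose took 37.6% and 36.9% of these counts with arsenite, against 27.2% and 27.8% in controls. The 12 that fell took 5.72% and 5.65% with arsenite, against 10.9% and 10.4% in controls. The members not called took 56.7% and 57.5% with arsenite, against 61.9% and 61.7% in controls. The members were grouped by their calls in the same libraries, so these shares describe their weight and add no evidence of direction. By this measure 13 members lay above both controls in both arsenite libraries, 28 lay below and 13 overlapped. The percentages sum to 100 in each library, so a gain of abundant members lowers the others: of the 30 members not called, 16 lay below by this measure and 10 in CPM. No share over all genes exists for this measure, and the counts are no test.

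The member with the largest fitted change was ENSG00000124614. It had 33.5 and 30.8 CPM with arsenite, from 910 and 842 counts, against 6.34 and 5.68 CPM in controls, from 171 and 156 counts. The groups were far apart and the replicates close. Its log2 fold change was 2.50 (SE 0.21, adjusted p = 5.49e-30, edgeR), 5.66-fold higher. That value was the highest of the 8592 tested genes with a mean of at least 10 CPM. The gene reached that floor through its arsenite libraries alone, so the rank depends on the floor and adds no support. Over all 14389 genes tested, the highest log2 fold change was 11.01. ENSG00000124614 was also the least abundant member. Its mean of 19.1 CPM was 15.2% of that of the next lowest member, which had 125 CPM. The counting of reads that overlap another annotated gene or a copy is not stated, and its part in this value was not tested. Without this member the median log2 fold change of the others was 0.04 and the highest 0.90.

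A second set of members rose by 1.57-fold to 1.86-fold and held its calls with each library left out in turn. ENSG00000083845 had 1933.5 and 1552.2 CPM with arsenite, against 946 and 1040.8 CPM in controls. Its log2 fold change was 0.90 (SE 0.15, adjusted p = 1.61e-07, edgeR). ENSG00000148303 had 2072.5 and 1684.7 CPM with arsenite, against 1068.2 and 1083.9 CPM in controls. For both members each arsenite library stood well above both controls, and arsenite 1 was the higher of the pair. The log2 fold change of ENSG00000148303 was 0.89 (SE 0.15, adjusted p = 1.89e-07, edgeR). Among the 2037 genes with at least 100 CPM they ranked 11 and 12 from the highest. Among the 8592 with at least 10 CPM they ranked 37 and 39.

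ENSG00000164587 had 2111.0 and 1686.1 CPM with arsenite, against 1145.5 and 1198.4 CPM in controls, a log2 fold change of 0.78 (SE 0.15, adjusted p = 5.31e-06, edgeR). ENSG00000089157 had 3528.6 and 3101.8 CPM with arsenite, against 2075.3 and 2142.2 CPM in controls. ENSG00000100316 had 3675.8 and 3061.5 CPM with arsenite, against 2226.1 and 2310.5 CPM in controls. These last 2 had the highest CPM with arsenite among the members, and their groups did not overlap. Their log2 fold changes were 0.74 and 0.65 (adjusted p = 1.13e-05 and 0.000107, edgeR). ENSG00000134419 stood far lower in level, with 168 and 169 CPM with arsenite, against 123 and 98.1 CPM in controls. Its controls differed more from each other than its arsenite libraries did. Its log2 fold change was 0.69 (SE 0.17, adjusted p = 0.000378, edgeR), and 0.53 without control 2, where the adjusted p was 0.0469.

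**Figure D3:**
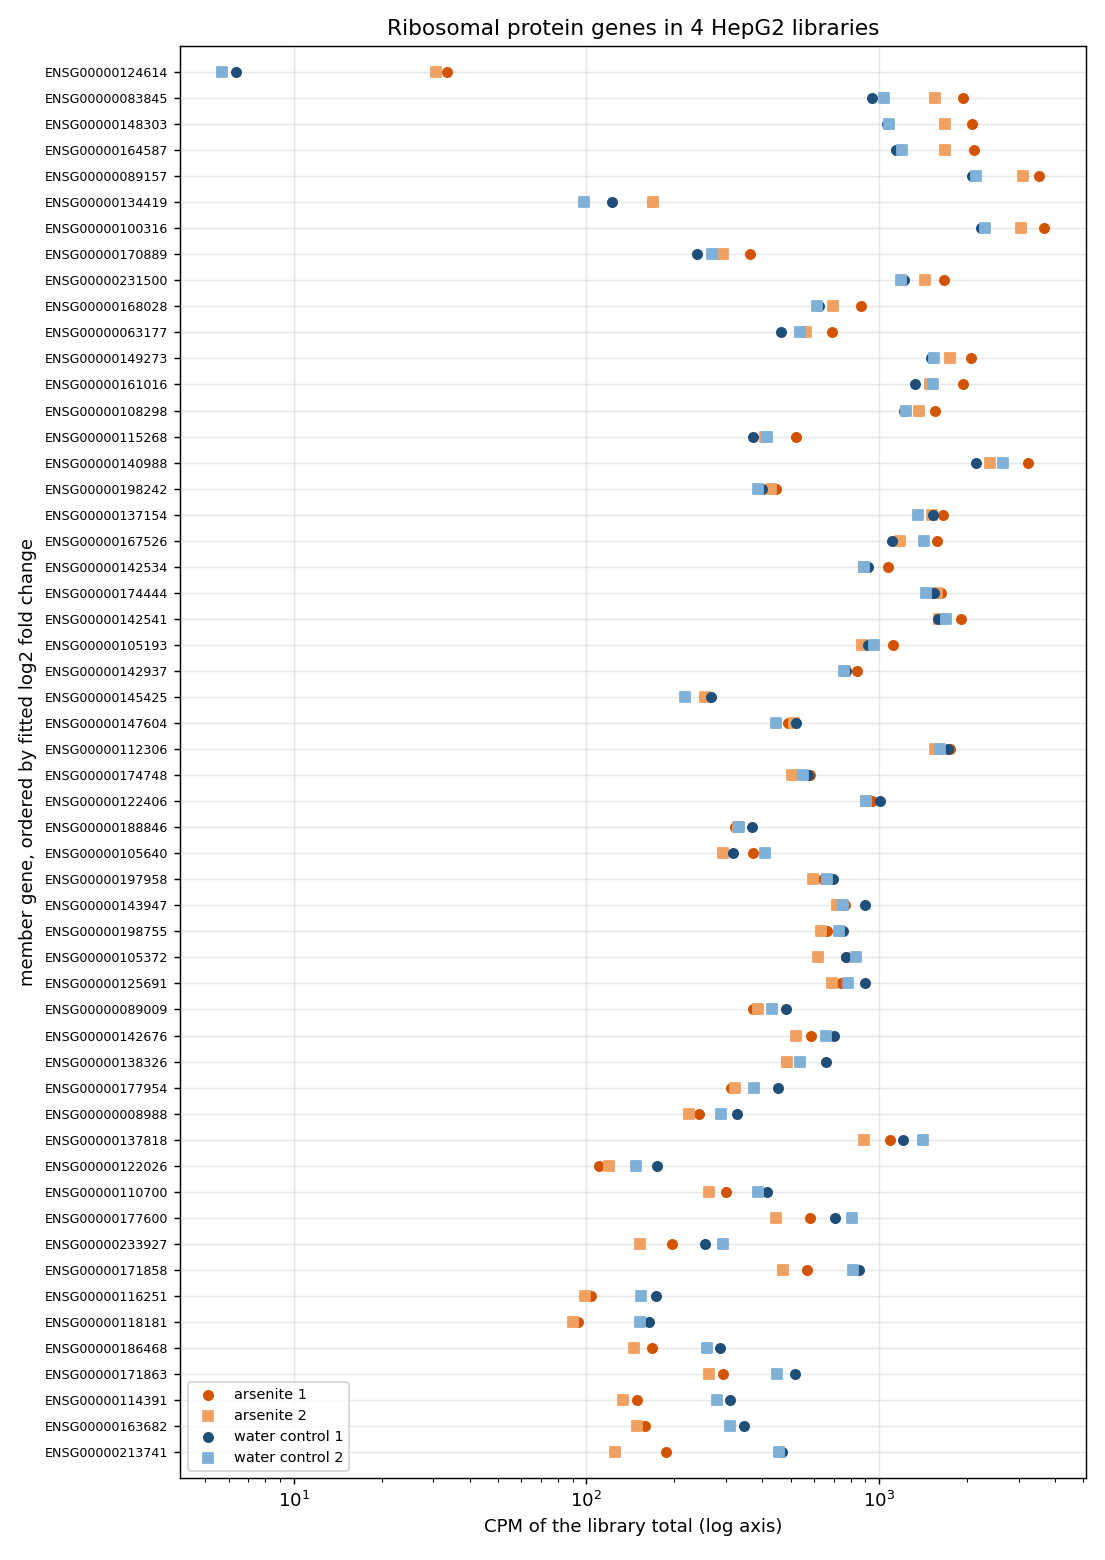
CPM on a log axis for each member in arsenite 1, arsenite 2, water control 1 and water control 2, ordered by fitted log2 fold change. The top row, ENSG00000124614, lies at 5.68 to 33.5 CPM, far left of the other members, and the bottom rows show both arsenite libraries left of both controls.

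The remaining 5 members that rose changed by 1.32-fold to 1.37-fold, and lost their calls in some fits with a single library left out. ENSG00000231500 had 1667.6 and 1433.3 CPM with arsenite, against 1213.9 and 1193.9 CPM in controls (log2 fold change 0.45, adjusted p = 0.0128, edgeR). ENSG00000170889 had 362 and 292 CPM with arsenite, against 239 and 269 CPM in controls (log2 fold change 0.45, adjusted p = 0.0204, edgeR). ENSG00000168028 had 867 and 697 CPM with arsenite, against 623 and 616 CPM in controls (log2 fold change 0.42, adjusted p = 0.0248, edgeR). In each of these members arsenite 1 was highest and arsenite 2 lay nearer to the controls. ENSG00000063177 had 692 and 565 CPM with arsenite, against 464 and 536 CPM in controls (log2 fold change 0.42, adjusted p = 0.0278, edgeR). ENSG00000149273 had 2062.4 and 1743.7 CPM with arsenite, against 1509.0 and 1536.9 CPM in controls (log2 fold change 0.41, adjusted p = 0.0244, edgeR). The log2 fold changes of the 5 were 0.26 to 0.34 without arsenite 1 and 0.33 to 0.48 without control 1. All lost their calls in both fits, where fewer samples entered and the number called over all genes fell as well. Without control 2 the values were 0.40 to 0.52. There ENSG00000170889 and ENSG00000063177 kept their calls and the other 3 did not, although the number called over all genes did not fall.

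Among the members that fell, ENSG00000213741 changed most. It had 188 and 126 CPM with arsenite, from 5106 and 3438 counts, against 466 and 455 CPM in controls, from 12575 and 12515 counts. Both arsenite libraries were far below the controls, and they differed from each other by 0.58 on the log2 scale, the widest gap between replicates of any member. The log2 fold change was -1.47 (SE 0.16, adjusted p = 7.78e-17, edgeR), 2.77-fold lower. That value was the lowest of the 2037 tested genes with at least 100 CPM. Among the 8592 with at least 10 CPM it ranked 10 from the lowest. Leaving out a library gave values of -1.78 to -1.14.

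ENSG00000163682 had 159 and 149 CPM with arsenite, against 347 and 309 CPM in controls. ENSG00000114391 had 149 and 133 CPM with arsenite, against 310 and 280 CPM in controls. In both, the arsenite libraries lay close together and well below the controls. Their log2 fold changes were -1.01 and -0.98 (SE 0.16 each), 2.01-fold and 1.97-fold lower (adjusted p = 4.36e-08 and 1.23e-07, edgeR). ENSG00000171863 had 293 and 263 CPM with arsenite, against 517 and 449 CPM in controls, a log2 fold change of -0.72 (SE 0.16, adjusted p = 0.000101, edgeR). These 3 and ENSG00000213741 kept their calls with each library left out in turn.

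The other 8 members that fell lost their call in at least 1 of the 4 fits with a library left out. The number called over all genes also fell in these fits, except without control 2. ENSG00000186468 had 168 and 146 CPM with arsenite, against 287 and 258 CPM in controls, a log2 fold change of -0.71 (adjusted p = 0.000155, edgeR). ENSG00000118181 had 93.7 and 90.3 CPM with arsenite, against 164 and 153 CPM in controls, a log2 fold change of -0.70 (adjusted p = 0.000323, edgeR). Both lost the call without arsenite 2 alone, at adjusted p of 0.0628 and 0.0525. ENSG00000171858 had 568 and 469 CPM with arsenite, against 853 and 816 CPM in controls, a log2 fold change of -0.60 (adjusted p = 0.000903, edgeR). Its adjusted p was 0.114 without arsenite 2 and 0.0560 without control 1. ENSG00000116251 had 104 and 99.1 CPM with arsenite, against 173 and 154 CPM in controls, a log2 fold change of -0.60 (adjusted p = 0.00228, edgeR). It kept the call without control 2 alone, at 0.00518, and had 0.0861 without arsenite 1, 0.115 without arsenite 2 and 0.108 without control 1.

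ENSG00000233927 had 196 and 153 CPM with arsenite, against 254 and 293 CPM in controls, a log2 fold change of -0.56 (adjusted p = 0.00353, edgeR). Without arsenite 2 its adjusted p was 0.294 and without control 2 it was 0.0649. ENSG00000177600 had 583 and 445 CPM with arsenite, against 707 and 811 CPM in controls, a log2 fold change of -0.48 (adjusted p = 0.0102, edgeR). It kept the call without arsenite 1 alone, at 0.0142, and had 0.405 without arsenite 2, 0.0533 without control 1 and 0.124 without control 2. In both members arsenite 2 was the lowest library and control 2 the highest.

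The 2 smallest falls past the threshold passed in at most 1 of the fits with a library left out. ENSG00000110700 had 301 and 263 CPM with arsenite, against 416 and 387 CPM in controls, a log2 fold change of -0.43 (adjusted p = 0.0266, edgeR). It passed in none of the fits with a library left out, where the adjusted p was 0.117 without arsenite 1, 0.382 without arsenite 2, 0.277 without control 1 and 0.0504 without control 2. ENSG00000122026 had 111 and 119 CPM with arsenite, against 175 and 148 CPM in controls, a log2 fold change of -0.41 (adjusted p = 0.0455, edgeR). Without control 2 its adjusted p was 0.0358, and it was 0.401 without arsenite 1, 0.232 without arsenite 2 and 0.471 without control 1.

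Among the 30 members that did not pass, fitted log2 fold changes ran from -0.32 to 0.35, 17 above 0 and 13 below, with SE of 0.14 to 0.16. For the members fitted further from 0, these SE leave room for changes as large as the smallest called in other members. For those near 0, such as ENSG00000188846 (-0.02, SE 0.16), they leave less room. The highest fitted values were those of ENSG00000161016 (0.35, adjusted p = 0.0562), ENSG00000108298 (0.33, adjusted p = 0.0719) and ENSG00000115268 (0.33, adjusted p = 0.0895) in edgeR's test. ENSG00000161016 had 1934.9 and 1492.6 CPM with arsenite, against 1325.5 and 1527.3 CPM in controls, and its groups overlapped. ENSG00000108298 had 1548.9 and 1370.6 CPM with arsenite, against 1216.6 and 1237.2 CPM in controls, and its groups did not overlap. The lowest fitted values were those of ENSG00000137818 (-0.32, adjusted p = 0.0870), ENSG00000008988 (-0.32, adjusted p = 0.114) and ENSG00000177954 (-0.30, adjusted p = 0.133) in the same test. ENSG00000137818 had 1094.3 and 887.7 CPM with arsenite, against 1207.9 and 1419.7 CPM in controls.

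Some members varied as much between replicates as between groups. ENSG00000140988 had 3234.0 and 2391.8 CPM with arsenite, against 2140.2 and 2647.3 CPM in controls. ENSG00000167526 had 1577.2 and 1177.7 CPM with arsenite, against 1110.5 and 1421.8 CPM in controls. ENSG00000105640 had 370 and 294 CPM with arsenite, against 316 and 408 CPM in controls. In all 3 the groups overlapped, arsenite 1 was above arsenite 2 and control 2 above control 1. Their log2 fold changes were 0.32, 0.21 and -0.04 (adjusted p = 0.0783, 0.293 and 0.885, edgeR).

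Between members, levels were compared as CPM per kb of the gene length behind the authors' deposited RPKM. The median over the members was 207 CPM per kb. ENSG00000112306 was highest, at a mean of 2165.8 CPM per kb over the 4 libraries, followed by ENSG00000140988 at 1078.9, ENSG00000161016 at 727, ENSG00000231500 at 726 and ENSG00000142541 at 717 CPM per kb. In CPM, ENSG00000112306 had 1748.3 and 1554.1 with arsenite, against 1725.5 and 1616.7 in controls, and the groups overlapped (log2 fold change 0.07, adjusted p = 0.771, edgeR). ENSG00000142541 had 1905.0 and 1603.5 CPM with arsenite, against 1589.3 and 1696.0 CPM in controls (log2 fold change 0.18, adjusted p = 0.370, edgeR). Of the 5 highest members per kb, ENSG00000231500 alone passed the threshold.

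The 5 lowest members were ENSG00000124614 at 11.6, ENSG00000134419 at 20.9, ENSG00000116251 at 27.0, ENSG00000213741 at 31.6 and ENSG00000188846 at 39.2 CPM per kb. Of these, 2 rose, 2 fell and ENSG00000188846 did not pass, with 323 and 330 CPM with arsenite against 369 and 331 CPM in controls (log2 fold change -0.02, adjusted p = 0.947, edgeR). How that length was built from exons is not stated; a row that includes rarely used exons has a lower value per kb than its main transcript would.

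Most members that fell were less abundant than most that rose. In controls the 12 that fell had 159 to 834 CPM, with a median of 311 CPM. The 12 that rose had 6.01 to 2268.3 CPM in controls, with a median of 1034.8 CPM. Of the 12 that fell 11 lay below the members' median mean level of 643 CPM, and of the 12 that rose 8 lay above it. Across the 54 members, Spearman's rho of the log2 fold change with the mean CPM over the 4 libraries was 0.53, against 0.17 across all genes tested. Most genes tested were less abundant than the members, and rho was not computed over genes as abundant as the members. With the level in controls alone, rho across the members was 0.41 in CPM and 0.29 in CPM per kb, and it was not computed across all genes. Whether the relation is particular to the members was therefore not tested. The points share their 4 libraries, and the same counts enter both measures, so each rho is a description. The fold change showed little relation to gene length among the members, at a rho of 0.06, against -0.13 across all genes tested. Median lengths were 4105 bp for the members that rose, 2465.5 bp for those that fell and 2835.5 bp for those not called.

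**Figure D4:**
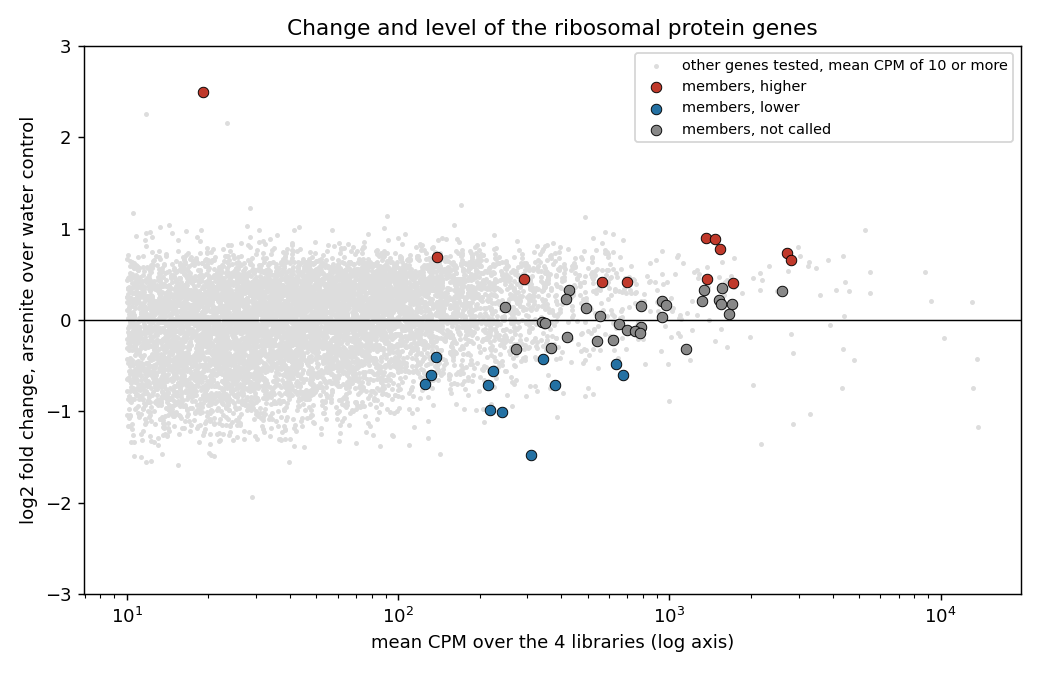
Log2 fold change of arsenite over water against mean CPM over the 4 libraries (log axis) for the 54 members and, in light grey, the other tested genes with at least 10 CPM. The members that fell had 159 to 834 CPM in controls and lie left of most of those that rose, while ENSG00000124614 stands alone at the upper left.

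Rows near 0 in 1 group were counted in both directions. There were 28 rows with at most 3 counts over both controls and at least 10 in each arsenite library, and 1 row met the opposite rule, with at most 3 counts over both arsenite libraries and at least 10 in each control. The 28 rows held 0.00532% and 0.00436% of the counts with arsenite; the rule itself fixes their low counts in controls. Their part in the ribosomal protein results was not tested. In bulk RNA, fewer cells and less RNA per cell cannot be told apart.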

How the data were processed

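Total RNA was turned into sequencing libraries with Illumina's TruSeq chemistry, per the labels' protocols. Tools listed in the submitters' processing notes, with no role stated, are STAR 2.4.1d, featureCounts 1.4.6-p4 and bcl2fastq 1.8.4, and the build is GRCh38. Strand, annotation and the treatment of reads with several matches are not given in the sources used here. Deposited by the authors were raw counts per gene and RPKM, each for 60675 human identifiers, per the file headers. In the NIH3T3 columns the last 12946 rows repeat the first ones, so they do not belong to these identifiers. The divisors of the RPKM cycled through 14 values over successive rows, of which 8 equalled column totals; with this cycle all RPKM above 1 were rebuilt within 0.1%, and RPKM served only to recover gene lengths.

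The 2 arsenite and 2 water libraries of HepG2 were compared in edgeR 4.0.16 (R 4.3.3) on counts, with the default low-count filter, TMM, the 2-sided quasi-likelihood test and Benjamini-Hochberg adjustment over all genes. Alternatives were DESeq2 1.42.0, other scaling and filters, robust spread, each library's length trend removed (loess, span 0.5), a test against a fold of 1.2, and each library left out. Python 3.11.15 and pandas 2.3.3 were used for tables. The members and lists were chosen with earlier results of these data known. Named members are those past the threshold, the 5 highest and 5 lowest per kb, the 3 furthest on either side among the others, and the 3 with the widest gap between replicates of a group. Wider gene lists and marker lists, written as symbols, were not run, for want of a table of human symbols among the references at hand. For the same reason no genome positions or sequences are given.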

Additional observations from a re-analysis of the deposited data

How the results depend on the processing

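Over 12 alternatives and 54 members, 587 of 648 results kept their direction where called and their side of the threshold, 47 lost and 14 gained a call, and none reversed. Of the 24 members past the threshold, 11 passed in every alternative, 7 that rose and 4 that fell, and none of the 24 changed sign. The matching share over all called genes was not counted, so it is not known whether the members differ from other genes in this. The 12 called higher became 7 in the test against a fold of 1.2 and 7 (without control 1 or without arsenite 1) to 17 (without arsenite 2) with a library left out. The 12 called lower became 4 (without arsenite 2) to 9. The 4397 genes called in all became 2498 against a fold of 1.2 and 844 (without arsenite 1) to 4503 (without control 2), with 1378 without control 1 and 2879 without arsenite 2; fewer samples entered those fits, in which the single library of an arm borrowed the spread of the remaining pair. After removal of each library's length trend, 12 members were called higher and 15 lower. DESeq2 called 12 higher and 11 lower, against 1719 and 2067 over all genes. Counts over all genes by direction are not given here for the other fits of this paragraph. Their member counts are therefore no result about the members alone. The percent-of-members scale, the set without the lowest member and the group above 100 CPM were chosen after seeing the data. No paired analysis was possible because the labels give no replicate numbers. The alternatives for the wider lists were not run. Members other than ENSG00000124614 had at least 2472 counts in every library, so the 2 libraries per group limit the precision more than depth.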
